A study of Mus musculus with 2 samples.

Results

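The immediate early genes described here are 10 genes chosen by name: Fos, Fosb, Jun, Junb, Jund, Egr1, Ier2, Atf3, Zfp36 and Nr4a1. They are 10 of the 17938 genes listed for single αSMA-labeled periosteal cells, and all 10 had unique molecular identifiers (UMIs, the tags that count single transcripts). Their levels were described in 503 cells with 200 or more genes. These cells were taken apart by time after tamoxifen (181 cells from the 2-day pool, 189 from the 6-week pool and 133 from the 13-week pool) and by 3 sets of other genes. A total of 65 cells had a UMI of a muscle satellite cell gene (Pax7, Myf5, Myod1, Cdh15 or Calcr), 118 cells had a UMI of Rgs5, a gene of pericytes and vascular smooth muscle, and 187 cells had 3 or more UMIs of the tendon genes Thbs4, Fmod and Tnmd. The remaining 157 cells fell in none of these groups and 24 cells fell in 2 of them.

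Immediate early genes are transcribed within minutes of a stimulus and need no new protein synthesis, because the factors that switch them on are already present and are activated by kinases. Their transcripts and proteins are short-lived, so they mark cells with a recent stimulus, which can be a growth factor, mechanical load, injury or stress. Enzymatic tissue digestion is a known stimulus of this kind. Fos and Fosb pair with Jun, Junb or Jund to form the AP-1 transcription factor, which acts in bone, tendon and muscle cells among many others.

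Periosteum was taken from the tibia and femur of αSMACreER/Ai9 mice, in which tamoxifen marks cells that express α-smooth muscle actin, and their descendants, with the red reporter Tomato. The pools for 2 days and 6 weeks were from αSMACreER/Ai9/Col2.3GFP mice aged 10.3 and 14.4 weeks (2 and 43 days of chase). The 13-week pool was from αSMACreER/Ai9/R26-M2rtTA/TetOP-H2B-GFP mice aged 20.1 weeks (96 days of chase), a strain in which doxycycline feeding switches on a GFP-tagged histone. Per the study's methods these mice had been given doxycycline until about the time of tamoxifen. All mice were female, received 2 doses of 75 mg/kg tamoxifen, and had their periosteum digested with collagenase and hyaluronidase for 30 min. Live Tom+ cells were sorted singly without antibody staining, so vascular and muscle-associated cells carrying the label stayed in. Each time point was 1 pool of a few mice, the 2-day and 13-week cells shared a plate, and the 6-week cells had a plate of their own. On the shared plate the 2-day cells lay in rows A to H and the 13-week cells in rows I to P. Strain, age, doxycycline, chase time and plate rows (and, for 6 weeks, the plate) therefore cannot be told apart. No time point was tested against another. Every cell went through the same digestion, so any part of it in these levels cannot be told apart from the state of the cells in the mouse.

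The stretches of DNA just before the starts of the 4 AP-1 genes with the highest levels are shown because these genes were found together in the same cells. They are the bases before the RefSeq transcript start in GRCm38.p6, the same mouse assembly that the reads were aligned to, each read 5′ to 3′ on the strand of the gene. The Fos stretch lies at chr12:85473640-85473889 on the plus strand, and those of Fosb at chr7:19310052-19310295, Jun at chr4:95052223-95052472 and Junb at chr8:84978749-84978998 all lie on the minus strand. The Fosb stretch has 244 bases, because those nearest to its RefSeq start lie in an exon of GENCODE M21 and are not printed. The protein-coding genes themselves, as GENCODE M21 places them on GRCm38, span chr12:85473890-85477273 (Fos), chr7:19302696-19310051 (Fosb), chr4:95049034-95052222 (Jun) and chr8:84974484-84978718 (Junb). Capitals mark TGACG on either strand, the core of the site bound by the CREB family, and TATAAA on the strand of the gene.
Fos: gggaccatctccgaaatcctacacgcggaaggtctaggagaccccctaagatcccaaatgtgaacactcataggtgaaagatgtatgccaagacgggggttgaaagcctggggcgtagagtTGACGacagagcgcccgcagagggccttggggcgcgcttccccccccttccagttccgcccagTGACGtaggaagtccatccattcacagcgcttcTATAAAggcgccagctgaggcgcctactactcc
Fosb: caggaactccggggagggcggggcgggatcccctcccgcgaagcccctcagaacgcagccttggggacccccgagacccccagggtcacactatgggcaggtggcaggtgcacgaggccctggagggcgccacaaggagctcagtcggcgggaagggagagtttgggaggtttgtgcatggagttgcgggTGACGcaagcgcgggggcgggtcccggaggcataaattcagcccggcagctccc
Jun: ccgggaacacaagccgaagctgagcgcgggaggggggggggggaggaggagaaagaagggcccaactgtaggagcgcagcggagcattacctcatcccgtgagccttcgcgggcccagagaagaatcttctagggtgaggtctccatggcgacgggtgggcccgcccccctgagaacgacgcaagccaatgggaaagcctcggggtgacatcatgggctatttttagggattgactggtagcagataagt
Junb: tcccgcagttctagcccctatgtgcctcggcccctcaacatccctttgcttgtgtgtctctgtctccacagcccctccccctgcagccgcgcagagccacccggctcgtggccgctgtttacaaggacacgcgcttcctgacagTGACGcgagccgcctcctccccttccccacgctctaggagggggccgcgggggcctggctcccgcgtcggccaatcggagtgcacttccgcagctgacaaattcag
Fos held TGACG at 2 places, starting 129 and 66 bases before the transcript start, and TATAAA 33 bases before it. Distances count from the RefSeq start, and motifs were searched in the full 250 bases for every gene. Fosb held TGACG once, 60 bases before the start, and Junb once, 106 bases before it. Of the 8 members with a promoter in the RefSeq table, 5 held TGACG in the 250 bases before the start, while 17.8% of 32851 promoters held it. The AP-1 site TGANTCA (both strands) was in 0 of these 8 and in 6.75% of all promoters, and the longer site TGACGTCA, which contains TGACG, was in 0 and in 1.55%. The CArG box, the serum response factor site, was in 1 of the 8, Zfp36, and in 1.47% of all promoters. These matches describe letters in a short window only.

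Depth was low throughout. Total UMIs per time point ranged from 117824 to 171209 and the median cell had between 672 and 795 UMIs, so levels are given as UMIs per 10000 UMIs, summed over the cells of a group, with 95% Poisson intervals that cover counting error only. The 2 plates used the same 384 well barcodes. Because the assay tags the 3′ end of each transcript once, levels were not divided by gene length. The 10 genes together gave 3095 UMIs, of which the 2-day pool held 1344, the 6-week pool 1145 and the 13-week pool 606.

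Egr1, Fos and Fosb had the highest levels. Egr1, a zinc finger factor that follows serum and mechanical stimuli, had 19.8 UMIs per 10000 over all cells, and was found in 44.9% of cells. Fos had 13.2 per 10000 in 42.1% of cells, and Fosb 8.39 in 25.2%. Jun (6.73), Junb (6.37), Zfp36 (5.47) and Jund (4.98) followed, and Ier2 (1.84), Atf3 (1.35) and Nr4a1 (1.30) were sparse. Only Jund and Ier2 were neighbours in this order whose ranges over the time points did not overlap.

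At 2 days the summed level of the 10 genes was 78.5 UMIs per 10000 (95% interval 74.4 to 82.8). The 6-week level was 73.0 (68.9 to 77.4) and the 13-week level 51.4 (47.4 to 55.7). The 13-week level was thus 0.655 times that at 2 days (0.594 to 0.722), where the median of 772 genes with enough UMIs was 0.918 times. At 6 weeks the sum was 0.930 times that at 2 days (0.859 to 1.01), beside a median of 0.981 over 957 genes. The difference at 13 weeks was smaller in some settings: the ratio was 0.753 without the cells with a satellite gene UMI and 0.756 for the median over cells.

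The members did not share a pattern over time. In the 2-day, 6-week and 13-week pools Egr1 had 26.5, 17.2 and 13.6 UMIs per 10000. Fosb had 10.4, 8.68 and 5.09. Their levels were highest at 2 days and lowest at 13 weeks. Fos had 13.6, 14.99 and 10.2 and Jun 7.13, 7.34 and 5.35. Zfp36, which encodes the protein tristetraprolin that directs the decay of short-lived mRNAs, had 5.61, 6.38 and 4.07. These 3 genes had their lowest level at 13 weeks, and the interval of the 13-week over 2-day ratio lay below 1 for Fos (0.752, 0.598 to 0.941) but not for Jun (0.750, 0.545 to 1.03) or Zfp36 (0.727, 0.503 to 1.04). Junb had 5.02, 8.68 and 5.26 and was highest at 6 weeks, at 1.73 times the 2-day level (1.31 to 2.29). Jund, the AP-1 partner that most cells express without a stimulus, had 4.85, 4.78 and 5.43, within counting error of each other.

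Atf3, a stress-induced factor of the ATF/CREB family, differed most. It gave 45 UMIs in the 2-day pool (2.63 per 10000), 10 in the 6-week pool (0.638) and 5 in the 13-week pool (0.424). Of its 45 UMIs at 2 days, 27 lay in the cells with a satellite gene UMI. Ier2, a small nuclear protein of the early response, gave 30, 41 and 11 UMIs, and the orphan nuclear receptor gene Nr4a1 gave 18, 27 and 13. The level of Nr4a1 at 6 weeks rested partly on 1 cell with 10 of its 27 UMIs. Of the 8 members with 50 or more UMIs over both time points, 2 (Fosb and Atf3) were lower by 2-fold or more at 13 weeks than at 2 days, against 6.35% of all such genes. Of the 9 with enough UMIs at 6 weeks, 1 (Atf3) was lower by 2-fold or more, against 2.61%, and none was higher by as much. Atf3 met the minimum of 50 UMIs only through its 45 at 2 days, so its place in both counts was set by that minimum and nothing is read from it. With 1 pool per time point these ratios have no replicate check.

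**Figure D1:**
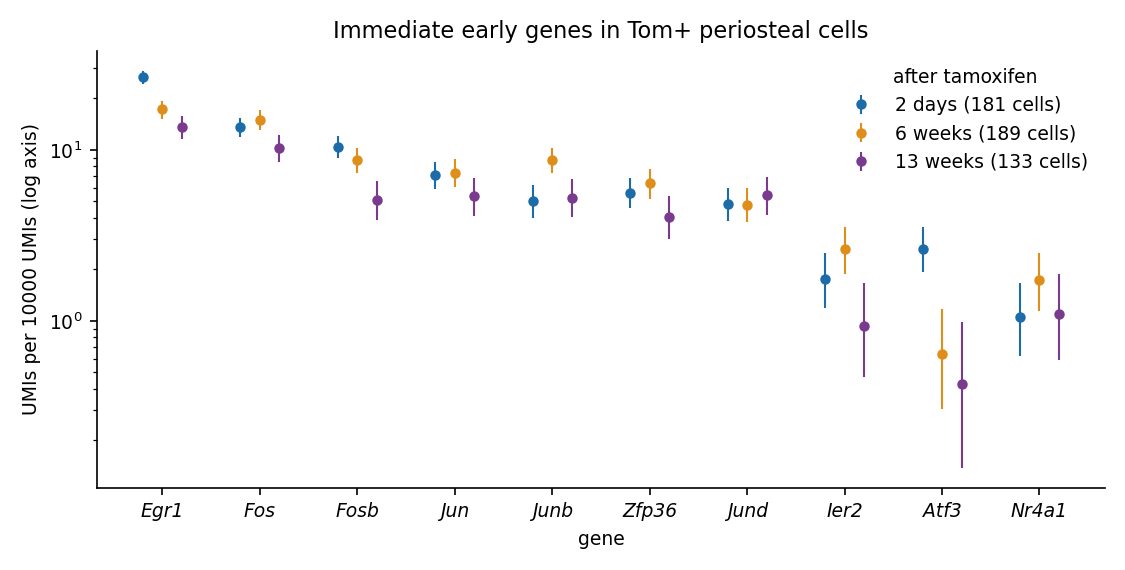
Level of each immediate early gene (UMIs per 10000 UMIs, log axis) at 2 days, 6 weeks and 13 weeks after tamoxifen; points are sums over the cells of 1 pool and bars are 95% Poisson intervals. Egr1 and Fosb step down from 2 days to 13 weeks, Junb is highest at 6 weeks, Jund is level, and Atf3 is found mainly at 2 days.

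A small share of the cells carried much of the signal. The tenth of cells with most UMIs of the 10 genes (50 cells) held 48.2% of them, while 98 cells (19.5%) had none and the median cell had 2. The highest cell had 67. Of these 50 cells, 22 (44%) had a satellite gene UMI, although such cells were 12.9% of all. Cells with Rgs5 made up 24% of the 50 and 23.5% of all cells, and cells with 3 or more tendon UMIs made up 16% of the 50 and 37.2% of all cells.

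The cells with a satellite gene UMI had the highest levels. Satellite cells are the resident stem cells of muscle fibres, which αSMACreER is also known to label in part. The summed level was 186.7 UMIs per 10000 in these cells against 59.4 in all other cells at 2 days, 203.8 against 55.0 at 6 weeks, and 123.0 against 44.7 at 13 weeks. The intervals of the groups did not overlap in any of the 3 pools. A total of 35 of the 65 cells had Pax7 and 24 had Cdh15, while Myf5 (13), Myod1 (10) and Calcr (8) were rarer. The label rests on 1 UMI in 39 of the 65 cells, which had summed levels of 198.2, 129.5 and 105.5 at the 3 time points, and the 26 cells with 2 or more had 171.4, 318.1 and 145.7.

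**Figure D2:**
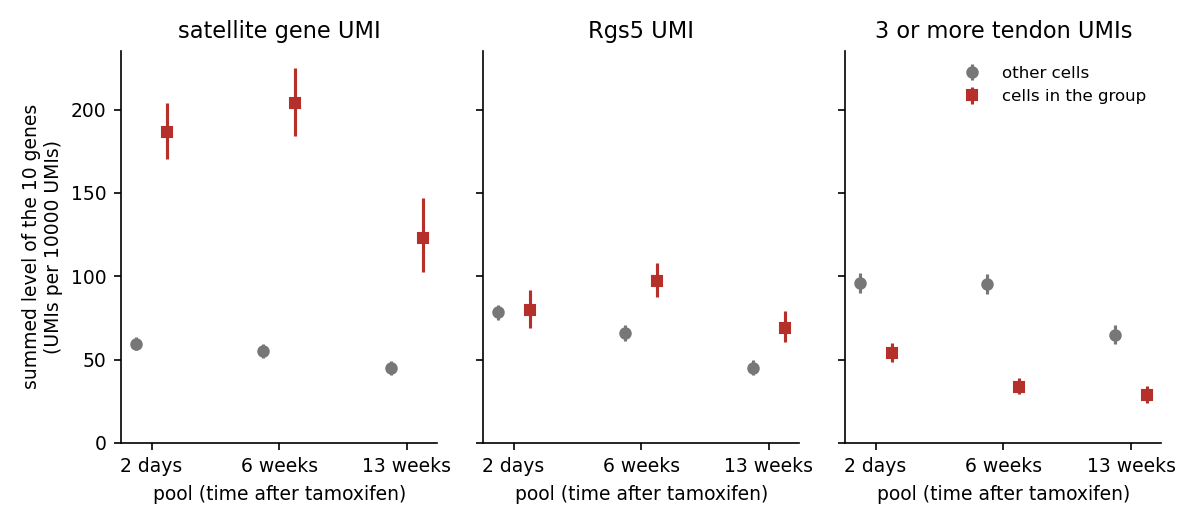
Summed level of the 10 genes (UMIs per 10000 UMIs) in the cells of each group (red squares) and in all other cells (grey circles) of the 2-day, 6-week and 13-week pools, with 95% Poisson intervals. Cells with a satellite gene UMI stand at 123.0 to 203.8, above the other cells of each pool, and cells with 3 or more tendon UMIs at 28.5 to 53.9, below them.

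In a test on UMIs summed per pool inside and outside the group (3 pools, edgeR quasi-likelihood test with the pool as block, Benjamini-Hochberg adjusted p under 0.05), 7 of the 10 genes were higher in the cells with a satellite gene UMI and none was lower. Over all genes, 8.66% were called higher. Nr4a1 and Ier2 did not pass and Atf3 was too sparse to be tested. The median log2 fold change of the 9 members tested was 1.39, beside -0.18 over the 1016 genes tested.

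Egr1 had 64.2, 62.2 and 36.7 UMIs per 10000 in these cells at 2 days, 6 weeks and 13 weeks, against 19.9, 11.03 and 11.4 in the others. Its log2 fold change was 1.88 (SE 0.31, adjusted p = 0.00255). Fosb had 33.8, 34.2 and 7.94 against 6.25, 5.15 and 4.83 (log2 fold change 2.04, SE 0.41, adjusted p = 0.00866). The 2-day and 6-week pools thus carried most of the difference in Fosb. Fos, its more abundant relative, had 23.3, 31.1 and 35.7 against 11.8, 12.8 and 7.80 (log2 fold change 1.39, SE 0.32, adjusted p = 0.0143). The difference in Fos was widest at 13 weeks.

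Junb, which can oppose Jun within AP-1, had 12.8, 20.01 and 13.9 UMIs per 10000 against 3.64, 7.11 and 4.46 (log2 fold change 1.57, SE 0.32, adjusted p = 0.00919). Jun had 11.3, 20.01 and 9.92 against 6.39, 5.59 and 4.92 (1.17, SE 0.34, adjusted p = 0.0309). Jund had 10.9, 10.01 and 7.94 against 3.78, 4.06 and 5.198 (1.12, SE 0.36, adjusted p = 0.0468). For all 3 Jun family genes the cells with a satellite gene UMI were higher in every pool. Zfp36 had 12.8, 18.4 and 4.96 against 4.33, 4.72 and 3.99 (1.37, SE 0.37, adjusted p = 0.0264), so its groups stood close at 13 weeks. Ier2 had 2.72, 5.79 and 1.98 against 1.58, 2.18 and 0.835 (1.08, SE 0.47, adjusted p = 0.138). Nr4a1 had 4.28, 1.58 and 1.98 against 0.481, 1.74 and 1.02 (1.40, SE 0.63, adjusted p = 0.149). Atf3 had 27 UMIs in 29 cells at 2 days and no more than 2 in either later pool, against 18, 9 and 3 UMIs in the other cells.

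The number of members called depended on each pool. It was 0 without the 2-day pool, where edgeR called none of 1087 genes and 5 members had an unadjusted p under 0.05. It was 4 without the 6-week pool (Fos, Junb, Egr1 and Atf3), beside 6.16% of all genes called higher. It was 1 without the 13-week pool (Fosb), where only 7 of 1401 genes (0.500%) were called higher. Atf3 is no support among these 4, since with all pools it was too sparse to be tested, and without the 6-week pool it passed the filter on low counts with its high level inside the group. The median log2 fold change of the members tested was 1.26, 1.48 and 1.61 without the 2-day, 6-week and 13-week pool, beside 1.39 with all pools. DESeq2 called 4 on all pools, beside 5.91% of all genes called higher. Leaving out the 5 cells with the highest summed levels left 3 calls (Fosb, Junb and Egr1), beside 5.05%. Comparing cells of this group alone, with no Rgs5 UMI and fewer than 3 tendon UMIs, only with the cells in none of the groups left 1 (Egr1). Of the 408 genes tested there, 5.64% were called higher. The median log2 fold change of the members tested was 1.29 with DESeq2, 1.20 without the 5 cells and 1.23 in the narrower comparison, in which 6 of 7 had an unadjusted p under 0.05. Ribosomal protein genes made up 17.0% of UMIs in these cells and 7.86% in the others, and their median depth was 825 against 718 UMIs. Of 11 endothelial markers 8 had a UMI (summed level 6.21 per 10000, 0.992 to 14.7 over pools) with Tie1, Emcn and Cldn5 at 0. Of 11 perivascular markers 10 had a UMI (12.2, 6.32 to 26.8) with Cspg4 at 0, and of 6 skeletal muscle fibre markers 4 had a UMI (3.65, 1.98 to 5.45) with Tnnt3 and Myh4 at 0. Other lists were more abundant: the 4 red blood cell genes gave 52.4 per 10000 (0.527 to 109.7 over pools) in 20% of the cells, the 7 fibroblast or progenitor genes 55.3 in 84.6%, and 7 of 8 tendon or fibrous genes 17.0 in 60%, with Mkx at 0. The red blood level was 49.9 in the cells with Rgs5, 31.2 in those of no group and 1.41 in those with tendon UMIs, the order of the member levels, and it ranged over pools from 2.05 to 122.5, from 0.886 to 116.9 and from 0.533 to 2.07. Median mitochondrial share was higher in the cells with a satellite gene UMI in each pool (6.77% against 5.71% at 2 days, 4.20% against 3.57% at 6 weeks, 8.58% against 6.93% at 13 weeks). Without cells rich in muscle fibre transcripts (5 or more UMIs) 7 members were again called, beside 10.8% of all genes called higher. The part of the ribosomal share, of the other cell type markers and of the mitochondrial share in the result was not tested, apart from the alternative without cells over 15% mitochondrial, in which 5 members were called, beside 8.83% of all genes.

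Cells with an Rgs5 UMI were close to other cells at 2 days, with a summed level of 79.6 UMIs per 10000 against 78.3. They were higher at 6 weeks (97.1 against 65.7) and at 13 weeks (69.1 against 44.9). By the same test 3 of the 10 genes were higher in these cells and none was lower, while 11.8% of the 926 genes tested were called higher. Atf3 and Nr4a1 were too sparse to be tested.

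Zfp36 had 9.44, 10.4 and 6.29 UMIs per 10000 in the cells with Rgs5, against 4.97, 5.16 and 3.26 in the others (log2 fold change 0.97, SE 0.26, edgeR adjusted p = 0.00217). Jun had 9.44, 13.1 and 7.86 against 6.74, 5.58 and 4.42 (0.87, SE 0.24, adjusted p = 0.00327). Fos had 17.6, 22.1 and 15.1 against 12.9, 12.8 and 8.37 (0.70, SE 0.23, adjusted p = 0.0156). These 3 genes were higher in the cells with Rgs5 in each pool. Egr1, the most abundant member, had 19.7, 16.9 and 17.6 against 27.6, 17.3 and 12.1, with a log2 fold change of 0.01 (SE 0.24, adjusted p = 0.990), and Fosb had 9.03, 8.46 and 6.29 against 10.6, 8.74 and 4.65 (0.04, SE 0.24, adjusted p = 0.953). For both genes the sign differed between pools. Junb (0.48, adjusted p = 0.175), Ier2 (0.49, 0.495) and Jund (0.26, 0.602) did not pass.

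The Rgs5 calls were fewer in several settings. Without the 6-week pool no member was called (3 had an unadjusted p under 0.05), beside 7.15% of all genes called higher. DESeq2 called 0 of 8 on all pools, again with 3 under 0.05 before adjustment, beside 5.29% of all genes. The cells with Rgs5 were also mixed: 60 of 118 had an endothelial UMI, and the summed perivascular level was 111.9 per 10000 (102.3 to 118.6 over pools). Their median depth was lower in each pool (588 against 844 UMIs at 2 days, 621 against 691 at 6 weeks, 562.5 against 762 at 13 weeks), and their median mitochondrial share was higher (7.36% against 5.16%, 3.71% against 3.57% and 7.90% against 6.43%). Red blood cell genes gave 49.9 per 10000 in them. Without cells over 15% mitochondrial 3 members were again called, and without the deepest 5% of cells 2 were, beside 11.3% and 9.79% of all genes. The part of depth and of red blood RNA in the result was not tested further. Cells with Rgs5 and an endothelial UMI had member levels of 80.3, 90.2 and 74.7, and those without had 79.1, 113.7 and 59.2. With only the latter as the group, 1 member (Fos) was called, beside 3.82% of the 681 genes tested. The median log2 fold change of the members tested was 0.52, beside 0.48 with all cells with Rgs5. Without the cells that had a satellite gene UMI, 4 were called (Fos, Jun, Junb and Zfp36), beside 12.4% of the 820 genes tested.

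Cells with 3 or more tendon UMIs had the lowest levels. Thbs4, Fmod and Tnmd mark tendon and the fibrous layer of the periosteum. Their summed level was 53.9 UMIs per 10000 against 95.7 in the other cells at 2 days, 33.7 against 95.1 at 6 weeks and 28.5 against 64.8 at 13 weeks, with no overlap of the intervals. In the same edgeR test 4 of the 10 genes were lower and none was higher, while 6.61% of the 1104 genes tested were called lower. The median log2 fold change of the 8 members tested was -0.97, beside 0.02 over all genes.

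Zfp36 had 3.12, 1.07 and 0.460 UMIs per 10000 in the cells with tendon UMIs against 7.35, 9.36 and 6.19 in the others, and fell by 2.09 on the log2 scale (SE 0.41, edgeR adjusted p = 0.00742). Junb had 2.27, 2.66 and 2.30 against 6.95, 12.05 and 6.99 (log2 fold change -1.63, SE 0.26, adjusted p = 0.00256). Fosb had 5.53, 3.55 and 2.76 against 13.8, 11.5 and 6.46 (-1.24, SE 0.23, adjusted p = 0.00627). The level of each of these 3 genes was lower in every pool. Fos had 10.4, 9.41 and 3.68 against 15.8, 18.1 and 14.0 (-0.89, SE 0.25, adjusted p = 0.0369). Jun had 6.10, 1.95 and 2.76 against 7.84, 10.4 and 6.86 (-1.06, SE 0.36, adjusted p = 0.0710). Egr1 had 19.9, 8.70 and 11.5 against 31.2, 22.0 and 14.8 (-0.60, SE 0.23, adjusted p = 0.0987). Jun and Egr1 thus had lower levels in each pool without passing the threshold. Jund had 3.97, 4.26 and 3.68 against 5.46, 5.08 and 6.46 (-0.31, adjusted p = 0.418), and Ier2 1.84, 1.60 and 0.690 against 1.69, 3.19 and 1.08 (-0.30, adjusted p = 0.614). Atf3 had 4, 1 and 0 UMIs in these cells and Nr4a1 had 2, 2 and 3.

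The other cells of this comparison included the cells with a satellite gene UMI. Without them 2 members, Junb and Zfp36, were called lower in the cells with tendon UMIs, beside 6.15% of all genes. The median log2 fold change of the members went from -0.97 to -0.62. The log2 fold change of Egr1 was then -0.0495 (adjusted p = 0.895) and that of Fosb -0.59 (adjusted p = 0.158), by the same edgeR test chosen after seeing the data. Cells of this group alone were also compared only with the cells in none of the groups. There the median was -0.38, and 5 of 7 members tested were lower. Junb and Zfp36 were called, beside 6.25% of 768 genes. Fos (-0.38, edgeR adjusted p = 0.385) and Fosb (-0.54, 0.333) were not, and Egr1 was at 0.17. Leaving out the 2-day pool left Junb and Zfp36, leaving out the 6-week pool left 3, and leaving out the 13-week pool gave 7 (Fos, Fosb, Jun, Junb, Egr1, Zfp36 and Nr4a1). The shares of all genes called lower moved the same way, at 3.07%, 4.78% and 8.16%. Nr4a1 is no support among these 7, since with all pools it was too sparse to be tested. With 1 tendon UMI enough to enter the group, none was called by edgeR, although 4 had an unadjusted p under 0.05. Over all genes 0.643% were then called lower. Median depth was 787 UMIs in the cells with tendon UMIs and 695.5 in the others. By pool the cells with tendon UMIs had 860.5 against 743 at 2 days, 652 against 676 at 6 weeks and 802 against 627.5 at 13 weeks. Ribosomal protein genes made up a smaller share of their UMIs in each pool (7.55% against 11.96% at 2 days, 5.78% against 8.85% at 6 weeks, 6.10% against 10.57% at 13 weeks). The 7 fibroblast or progenitor genes gave 128.6 per 10000 in them, and 7 of 11 endothelial markers gave 0.705 (0.142 to 1.84 over pools), with Tek, Tie1, Esam and Cldn5 at 0. With groups set on thinned UMIs 3 members were called (Fosb, Junb and Zfp36), beside 7.49% of all genes called lower, and the median was -0.74. Without the deepest 5% of cells 4 were called (Fosb, Junb, Egr1 and Zfp36), beside 6.58%. The part of depth in the result was not tested further, and that of the ribosomal share was not tested.

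**Figure D3:**
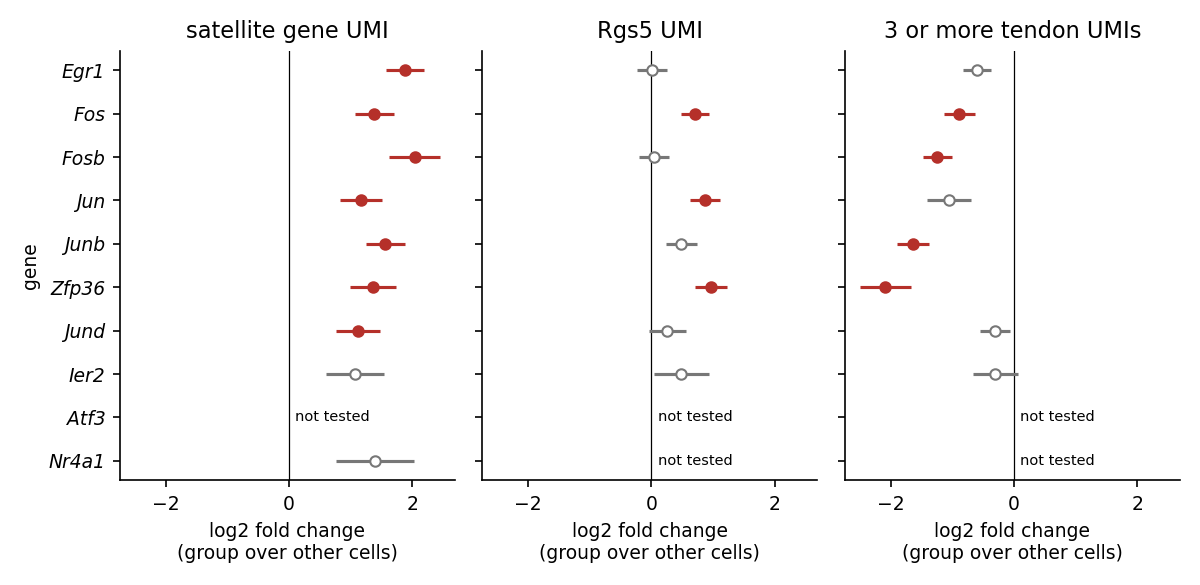
Log2 fold change of each member in cells with a satellite gene UMI, with Rgs5 or with 3 or more tendon UMIs over all other cells. Points are edgeR estimates over 3 pools, bars are SE worked back from the p-value, and filled red points passed an adjusted p of 0.05. Filled points number 7, all above 0, in the first panel, 3 above 0 in the second and 4 below 0 in the third.

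Of the 157 cells in none of the 3 groups, 155 had a UMI of a fibroblast or progenitor gene (Ly6a, Gsn, Dcn, Pdgfra, Pi16, Dpt or Clec3b). Their summed member levels were 63.8, 51.8 and 48.0 in the 2-day, 6-week and 13-week pools. Their 13-week level was 0.752 times that at 2 days. Egr1 was 21.1, 10.9 and 7.34 in these cells, and Fos 12.4, 10.9 and 8.39. Egr1 thus stood highest at 2 days here too, while the intervals of Fos overlapped.

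Other genes of the early response were read from a list of 50. Of these, 18 could be tested in the cells with a satellite gene UMI, and 3 were higher and 1 lower, where 8.66% of all genes tested were called higher and 7.87% lower. Btg2, an antiproliferative gene, had a log2 fold change of 1.70 (edgeR adjusted p = 0.0138), the NF-κB regulator gene Nfkbiz 1.97 (0.0207) and the transcription factor gene Cebpd 1.59 (0.0264). Ctgf, a matricellular gene controlled by YAP, went the other way, with -2.09 (0.0242). In the cells with tendon UMIs 16 could be tested, and 2 were higher and 3 lower, against 11.5% and 6.61% of all genes. Ctgf was higher there by 3.14 (adjusted p = 0.00169) and Cyr61, its relative, by 1.31 (0.0321), while Btg2 (-1.56, 0.00660), Hes1 (-1.66, 0.0141) and Nfkbiz (-2.06, 0.0408) were lower. In the cells with Rgs5 16 could be tested, and 3 were higher and 2 lower, against 11.8% in each direction over all genes. The counts of 2 stand near these shares. Id1 (1.37, 0.0129), Hes1 (0.99, 0.0239) and Gadd45g (1.24, 0.0285) were higher, and Ctgf (-2.45, 1.98e-05) and Cyr61 (-1.40, 0.0211) were lower. The called genes were named after their values were seen. Some entered a test through the low-count filter only on the side where they were high, so these calls are no support. Nfkbiz had 1.44, 1.31 and 1.11 UMIs per 10000 outside the satellite group and 0.993, 0 and 0.460 in the cells with tendon UMIs. Outside the cells with Rgs5, Id1 had 1.36, 1.17 and 0.814 and Gadd45g 0.817, 2.16 and 0.581. The list had a median log2 fold change of 0.52, -0.55 and 0.45 in the satellite, tendon and Rgs5 comparisons. Its genes with most UMIs, Id3 (666 UMIs) and Klf9 (209), passed in no comparison, with adjusted p of 0.110, 0.447 and 0.997 for Id3 and 0.647, 0.341 and 0.644 for Klf9.

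Heat shock genes, induced by protein damage and other stress, gave counts of calls near the share over all genes. Their median log2 fold change was 0.44, -0.21 and -0.12 in the satellite, tendon and Rgs5 comparisons, beside -0.18, 0.02 and -0.04 over all genes. Of 13 listed, 6 were tested in the cells with a satellite gene UMI and none passed in edgeR (2 had an unadjusted p under 0.05), where 8.66% of all genes were called higher. Hspa8 (405 UMIs) had a log2 fold change of 0.31 (adjusted p = 0.579), Hsp90ab1 (352 UMIs) 0.58 (0.256), Hspa5 (147 UMIs) 1.22 (0.130) and Hsp90aa1 (91 UMIs) 1.12 (0.155) in these cells. Hspb1, a small heat shock protein of muscle and vessel walls, was the only call in the other comparisons, with 1.79 (adjusted p = 0.000760) in the cells with Rgs5 and -1.71 (0.0234) in those with tendon UMIs, over 7 genes tested in each, beside shares of 11.8% higher and 6.61% lower over all genes. It had 0.613, 1.42 and 0.930 UMIs per 10000 outside the cells with Rgs5 and 0.426, 0.710 and 0.460 in those with tendon UMIs. Hspb1 thus passed the low-count filter only through the side where it was high, and its calls are no support. The kinases and transcription factors that switch on the early genes, a list of 16, were too sparse: only Elk4, a partner of serum response factor with 60 UMIs, could be tested, and it did not pass (adjusted p = 0.796 in the satellite and 0.0944 in the Rgs5 comparison).

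The members were found in the same cells. To compare cells at 1 depth, each was thinned to 300 UMIs, which left out 20 cells and kept 483. At this depth 206 cells (42.7%) had no member, 118 had 1, 57 had 2, and 102 (21.1%) had 3 or more. The highest number in a cell was 8. In the cells with a satellite gene UMI, 87.5% (95% Clopper-Pearson interval 76.8 to 94.4) had at least 1 member, against 52.7% (47.8 to 57.6) of the others. At full depth these shares were 96.9% and 78.1%. A number of 3 or more members was reached in 33 of 64 such cells (51.6%, interval 38.7 to 64.2), in 34 of 112 cells with Rgs5 (30.4%, 22.0 to 39.8), in 12 of 182 cells with tendon UMIs (6.59%, 3.45 to 11.2), and in 30 of 148 cells of no group (20.3%, 14.1 to 27.7). The groups had the same order in their summed levels in each pool.

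**Figure D4:**
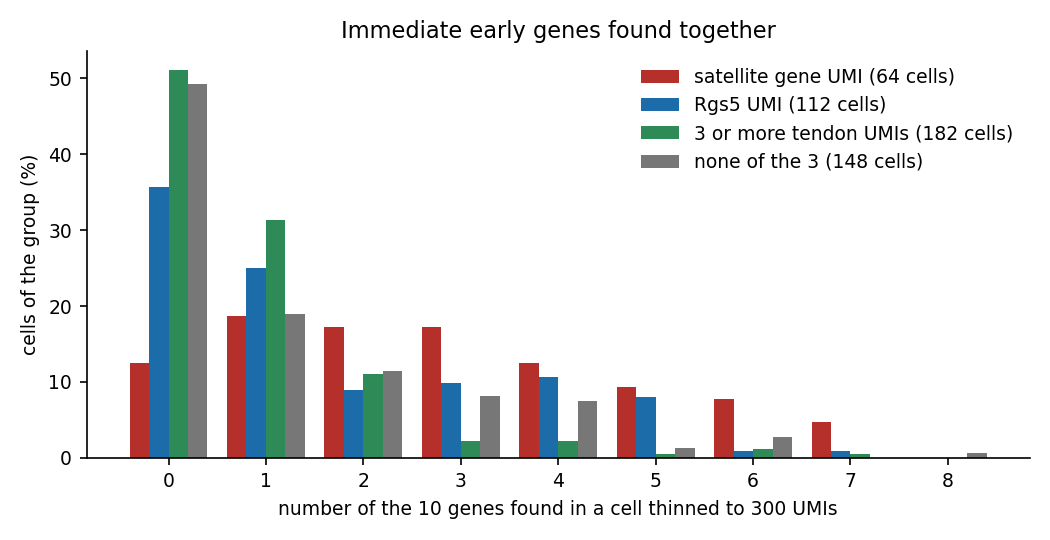
Share of cells (%) by the number of the 10 genes found in a cell thinned to 300 UMIs, for cells with a satellite gene UMI, with Rgs5, with 3 or more tendon UMIs and in none of these groups. Cells without any of the genes are 12.5% of the first group and 51.1% of the cells with tendon UMIs, and cells with 3 or more genes are 51.6% and 6.59%.

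Pairs of members were seen together more often than their separate frequencies within each time point give. Over the 45 pairs, cells with both genes numbered 822 against 391.5 expected, a ratio of 2.10, and 44 pairs had a ratio above 1. By pool the ratio was 1.96 (2 days), 2.31 (6 weeks) and 1.98 (13 weeks). As a comparison, all 50086 pairs among the 317 genes found in 10% or more of the thinned cells had a median ratio of 1.00, with 5% of pairs below 0.603 and 5% above 1.45. The 21 pairs among the 7 members that were as frequent ranged from 1.58 to 2.64, and 0.226% of all pairs were at or above their median of 2.03. The comparison pairs were not matched to the members in frequency. The ratio has a lower ceiling for pairs with a more common gene. The 0.226% therefore does not say how rare such ratios are among equally frequent genes.

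Fos and Egr1 were the most frequent pair. Egr1 was found in 75 of the 119 cells with Fos (63.0%, 95% interval 53.7 to 71.7) and in 19.8% (15.8 to 24.2) of the cells without. Given Fosb, 73.0% of 74 cells had Egr1 and 59.5% had Fos, against 22.7% and 18.3% without Fosb. Zfp36 paired most often with Fos (32 cells against 12.1 expected, ratio 2.64), and Jun with Junb least among the frequent genes (18 against 11.4, ratio 1.58). Summed over its 9 pairs, each member had a ratio between 1.89 (Junb) and 2.48 (Nr4a1). Atf3 and Nr4a1 were never found in the same thinned cell, where 0.421 were expected.

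Co-detection was partly a matter of which cells were compared. With frequencies taken within each time point and group the summed ratio was 1.67, and 44 of 45 pairs stayed above 1. It was 1.34 within the cells with a satellite gene UMI (290 observed against 215.7 expected) and 2.28 within those of no group. With the satellite gene cells left out, it was 1.86 within the cells with Rgs5 and 2.10 within those with tendon UMIs. Members were therefore found together also among cells where their level was low. All these values are counts over cells of 3 pools and carry no test.

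**Figure D5:**
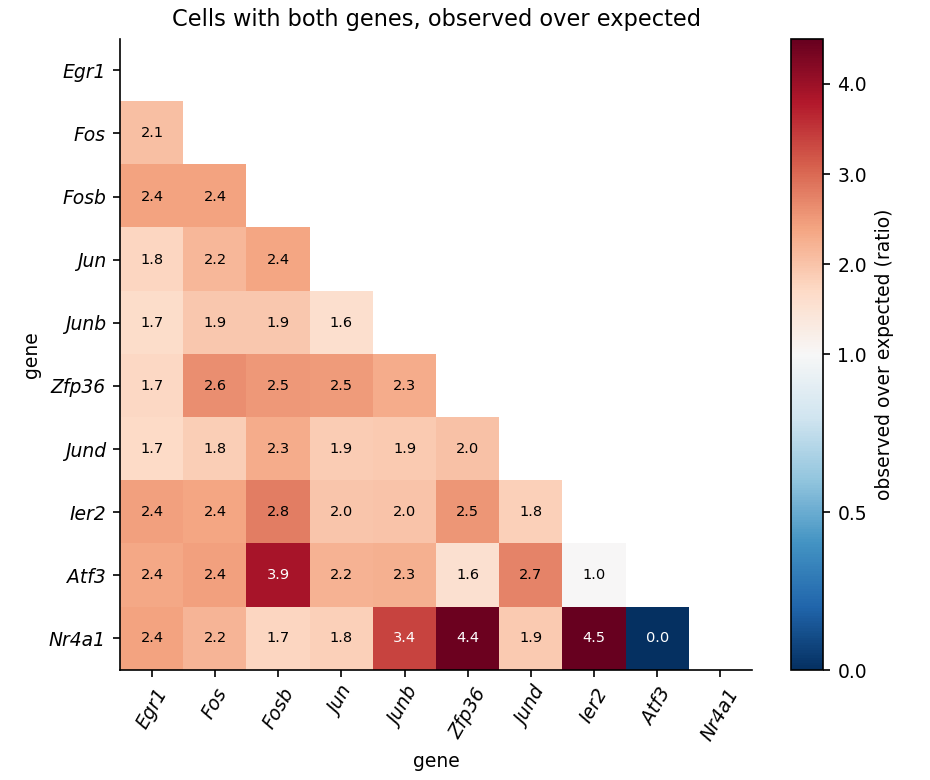
Ratio of the observed number of cells with both genes to the number expected from each gene's frequency within its time point, for the 45 pairs of members in 483 cells thinned to 300 UMIs; genes are ordered by level. The ratio is above 1 in 44 pairs, from 1.58 to 2.64 among the 7 frequent genes, and the extreme values lie in the sparse rows of Atf3 and Nr4a1.

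The genes whose level followed the summed members most closely were ranked among 1086 genes found in 10% or more of the cells, by the mean over the 3 time points of Pearson's r across cells (log scale). The cells of a time point share their library, so r is a description only, and the median over all ranked genes was -0.01. Btg2 came first with 0.35 (0.48, 0.25 and 0.33 at 2 days, 6 weeks and 13 weeks). Ifrd1, an interferon-related regulator of muscle and other cells, had 0.25, and Adamts1, a secreted protease, and Ier3, another early gene, had 0.23 each. H3f3b, a histone H3.3 gene, had 0.22 and Nfkbia, the NF-κB inhibitor, 0.22. The remaining genes among the top 10 were the ribosomal protein genes Rps20 (0.23), Rps27 (0.22), Rpl21 (0.22) and Rps9 (0.22). All these correlations are weak in counts this sparse. These genes were chosen by their likeness to the members in the same cells, so the values of Btg2 in the cell groups given above are no independent support, and the others are not described there.

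Member levels also differed with depth, mitochondrial content and plate position. Cells of each pool were split by total UMIs into 3 parts of near equal size. At 2 days the part with fewest UMIs had 108.8 member UMIs per 10000, the middle part 99.4 and the part with most 60.03. The same parts had 70.2, 86.7 and 67.5 at 6 weeks, and 82.8, 44.9 and 46.2 at 13 weeks. The shallowest cells thus stood highest at 2 days and 13 weeks but not at 6 weeks. Split by mitochondrial share in the same way, the highest part had 118.7 against 64.6 in the lowest at 2 days, 78.0 against 79.8 at 6 weeks and 65.1 against 46.3 at 13 weeks. Median mitochondrial shares were 5.83%, 3.59% and 6.93% at 2 days, 6 weeks and 13 weeks. On the shared plate, columns 1 to 12 had 90.6 and columns 13 to 24 had 66.0 at 2 days, and 43.9 and 59.7 at 13 weeks. The 2-day level was above the 13-week level in both blocks of columns, with overlapping intervals in columns 13 to 24 (60.6 to 71.7 and 53.5 to 66.4). Rows A to H, which held the 2-day cells, ranged from 47.9 to 133.1. Rows I to P, which held the 13-week cells, ranged from 17.4 to 69.8, so no row was shared by both time points. The part of depth, mitochondrial share and position in the comparisons of time was not tested beyond these values.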

How the data were processed

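The authors sorted single Tom+ cells into 384-well plates, tagged transcripts with well barcodes and UMIs, amplified 3′ ends, and processed reads with Drop-seq tools and STAR 2.5.4a against mm10. The submitters' processing notes also name Picard 2.9.3 and bcl2fastq 2.18.0.12. The study's methods give a version of the mm10 reference, but the annotation release it holds and whether counting used strand are not given in the sources used here. Junb overlaps Prdx2 on the other strand by 351 bases, and Prdx2 had 124 UMIs. The deposited values are raw counts, of UMIs in some tables and of reads in others, for each gene in each well. UMI counts were used, and read counts as an alternative. Wells were assigned by the sample row of each table, 168 unassigned wells were not used, and wells with fewer than 200 genes were left out. A readme deposited with the tables calls the last time point 12 weeks, while the tables and labels say 13 weeks. No doublet caller was run, since cells were sorted singly.

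UMIs were summed per pool inside and outside each cell group, giving 6 sums, and fitted with edgeR 4.0.16 (filterByExpr, TMM, pool as block, quasi-likelihood F-test, Benjamini-Hochberg adjustment over all genes tested, threshold 0.05). The genes that define a group were left out of its test. Each SE given was worked back from the fold change and its edgeR p-value. It therefore adds nothing to them and is unstable for fold changes near 0. Inside and outside sums of a pool come from the same mice, so the pool is the block. P-values rest on the spread over these 3 pools and on spread borrowed from all genes tested. The weight of the borrowed part (prior degrees of freedom) was 11.2 in the satellite, 7.24 in the tendon and 113.8 in the Rgs5 comparison. The Rgs5 p-values thus rest mostly on borrowed spread and do not measure agreement of the 3 pools alone. No exact sign-flip test over 3 pools can fall below 0.25. Shares and co-detection used cells thinned to 300 UMIs (seed 0), with expected counts from each gene's frequency per time point. DESeq2 1.42.0, filters, thresholds and left-out pools were tried as alternatives. Genes named besides the 10 members are the 10 most correlated with their sum, the 4 genes with most UMIs of 3 other lists, and called genes of those lists. The members and lists were chosen with earlier results of these data known. Promoter sequences are from RefSeq.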

Additional observations from a re-analysis of the deposited data

Results flagged for a closer look

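Wells left out for having fewer than 200 genes also held UMIs of the 10 genes, above the 3 UMIs that a count of 0 would allow. At 2 days 11 such wells had 28 member UMIs, 108.1 per 10000 (95% Poisson interval 71.8 to 156.2), beside 78.5 in the cells kept. At 6 weeks 27 wells had 25, 56.0 per 10000 (36.2 to 82.6), beside 73.0. At 13 weeks 59 wells had 34, 35.3 per 10000 (24.4 to 49.3), beside 51.4. The order over the time points was that of the cells kept. Whether these wells held damaged cells or none was not tested.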

How the results depend on the processing

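Under the alternatives, 326 of 450 member fold changes kept their direction and side of the threshold, 91 lost and 12 gained significance, and 21 changed sign. The 326 include members that passed in neither fit. Of the satellite calls, Egr1 passed in 15 of 17 alternatives, Fosb in 13, Fos and Junb in 11, Zfp36 in 8, and Jun and Jund in 5. Of the tendon calls, Junb and Zfp36 passed in 17 of 19, Fosb in 15 and Fos in 6. Of the Rgs5 calls, Jun passed in 14 of 19, Zfp36 in 13 and Fos in 11. Those that changed sign had not passed. They were Ier2 (read counts, -0.46) and Nr4a1 (-0.0110 to 2.24 without a pool) in the satellite comparison, and Jund (exclusive groups, 0.28, and no satellite gene cells, 0.0258), Egr1 (exclusive groups, 0.17) and Ier2 (-0.70 to 0.0630 without a pool) in the tendon comparison. In the Rgs5 comparison they were Fosb at -0.38 (2 or more Rgs5 UMIs), -0.21 (no cells over 15% mitochondrial), -0.47 (no low-count filter), -0.0196 (no pool block) and -0.12 to 0.12 (without a pool). Egr1 there was -0.21 (read counts), -0.0224 (no high-mitochondrial cells), -0.0177 (no endothelial UMI), -0.50 (no filter), -0.0646 (no pool block) and -0.25 to 0.20 (without a pool). Junb was -0.0301, Jund -0.25 and Ier2 -0.0269 without the filter, and Jund -0.10 to 0.47 without a pool.

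Members called in the satellite comparison (7) were 2 with read counts or no filter, 1 with exclusive groups, 4 with 2 or more satellite UMIs, without the deepest 5% or with DESeq2, 3 without the 5 highest cells, and 0 to 4 without a pool. In the tendon comparison (4) they were 1 with read counts, 2 with exclusive groups or no satellite gene cells, 0 with 1 tendon UMI, 7 without muscle fibre cells, 8 with no filter, and 2 to 7 without a pool. In the Rgs5 comparison (3) they were 0 with read counts, DESeq2 or no filter, 1 with groups set on thinned UMIs or without endothelial UMIs, and 0 to 3 without a pool. Over all genes, the satellite, tendon and Rgs5 shares called in these directions were 0.195%, 0.504% and 0.800% with read counts. They were 0.0805%, 1.28% and 0.440% with no filter. The share was 4.11% with 2 or more satellite UMIs, 6.61% without the deepest 5% (satellite), 8.06% without muscle fibre cells (tendon) and 7.74% with thinned groups (Rgs5). With no filter the median log2 fold change of the members also moved, from 1.39 to 0.66 in the satellite and from 0.48 to -0.0285 in the Rgs5 comparison, while that of all genes went to -1.35 and -0.74. Some counts include Atf3 or Nr4a1, which passed the filter only in some settings. Without TMM 6 members were called in the tendon comparison (Jun and Egr1 besides the 4), and calls over all genes split 92 higher and 53 lower (88 and 80 with it) in the satellite and 113 and 138 (127 and 73) in the tendon comparison, where the median of all genes moved from 0.02 to -0.16. Without the pool block 7, 3 and 2 members were called in the satellite, tendon and Rgs5 comparisons, beside 8.86%, 5.07% and 9.29% of all genes. The settings without muscle fibre, satellite gene or endothelial cells were chosen after seeing the data.

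The 13-week over 2-day ratio was 0.756 for the median over cells, 0.530 with read counts, 0.752 in cells of no group and 0.753 without satellite gene cells. The 6-week ratio was 0.820 for the mean and 0.720 for the median over cells, 0.812 in cells of no group and 0.858 without the deepest 5%. Shares with a member were, for cells thinned to 500 UMIs and unthinned, 96.0% and 96.9% in satellite gene cells, 63.3% and 78.1% in the other cells and 61.7% and 78.6% in tendon gene cells, and 78.0% unthinned in Rgs5 cells. The co-detection ratio was 1.87 at 500 UMIs, 1.69 unthinned and 1.67 within groups. The cause of these differences was not tested. Low depth and 1 pool per time point limit all values.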
